A study of Drosophila melanogaster with 2 samples.

Results

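Of 3260 reproducible binding peaks of the zinc-finger protein Spps in whole Drosophila melanogaster embryos, 627 (19.2%, exact 95% interval 17.9 to 20.6%) had their summit more than 500 bp and at most 2000 bp from the nearest transcription start site (TSS) of a protein-coding gene. These 627 summits, called TSS-near summits here, lie outside the core promoter but close to a gene start. They were chosen by position alone, from the deposited list of peaks that passed the irreproducible discovery rate (IDR) step, with the Ensembl annotation of the dm6 assembly. A further 1388 summits (42.6%) lay at most 500 bp from a TSS and are called promoter summits, and 1245 (38.2%) lay over 2000 bp away and are called distal summits. The data come from chromatin immunoprecipitation with sequencing (ChIP-seq) with an anti-GFP antibody, on embryos aged 0 to 12 h of a transgenic fly line that carries Spps with GFP fused to its C terminus. There was 1 group with 2 biological replicates, both with the tagged protein, so no genotype or treatment could be compared, and no embryos without the tag were analysed here. The samples pool all cell types and stages of that 12 h span. At the inner limit, the summits near CG15247 and Cbs lay just inside at 503 bp (signals 124 and 101), and those near Cyp310a1 and CG12402 just outside at 498 and 499 bp (signals 287 and 139). At the outer limit, Dif (1995 bp, signal 426) was inside and Notum (2001 bp, signal 193) was outside.

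Spps belongs to the Sp and KLF family, whose zinc fingers bind GC-rich boxes and CACCC boxes, and it is known in Drosophila for its link to Polycomb response elements, the sequences that recruit Polycomb repressor complexes. Sequence within a few kilobases of a Drosophila gene start, in particular the first intron and the stretch upstream, often holds enhancers and alternative promoters. Promoters of broadly expressed fly genes carry other elements, among them the DNA replication-related element (DRE) and Motif 1.

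The sequences of 4 of the strongest TSS-near summits are shown first, because they show the stretches of A and T whose short words were more frequent at summits than in the sequence beside them. Each shows the plus strand from 100 bases before to 100 bases after the summit, read from the RefSeq assembly of dm6. The windows are chr2L:480993-481193 (upstream of cbt), chr3L:14759412-14759612 (in Trl), chr3R:11760981-11761181 (in Lk6) and chrX:4910279-4910479 (in CG32772), all in introns. Capitals mark runs of 6 or more bases made only of A and T.
cbt: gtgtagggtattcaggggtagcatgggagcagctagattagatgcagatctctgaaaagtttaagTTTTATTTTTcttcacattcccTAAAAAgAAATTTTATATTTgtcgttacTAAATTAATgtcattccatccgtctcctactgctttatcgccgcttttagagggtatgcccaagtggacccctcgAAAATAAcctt
Trl: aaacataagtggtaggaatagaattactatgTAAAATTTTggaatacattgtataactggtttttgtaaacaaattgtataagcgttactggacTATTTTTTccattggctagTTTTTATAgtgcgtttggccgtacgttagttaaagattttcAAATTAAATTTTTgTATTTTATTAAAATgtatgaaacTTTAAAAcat
Lk6: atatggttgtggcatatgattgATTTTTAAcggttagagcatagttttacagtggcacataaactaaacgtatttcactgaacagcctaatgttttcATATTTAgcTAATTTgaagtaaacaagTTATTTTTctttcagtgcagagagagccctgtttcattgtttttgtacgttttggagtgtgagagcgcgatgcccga
CG32772: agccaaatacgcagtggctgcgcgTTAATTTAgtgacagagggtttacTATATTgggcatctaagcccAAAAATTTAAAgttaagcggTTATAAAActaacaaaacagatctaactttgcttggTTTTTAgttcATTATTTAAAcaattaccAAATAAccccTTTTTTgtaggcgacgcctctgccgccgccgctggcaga
The longest such run was 13 bases at cbt, 14 at Trl, 8 at Lk6 and 11 at CG32772. The 4 windows held 38.8, 25.4, 36.3 and 40.3% G and C, and windows of the same length beside them, centred 500 bp further from the TSS, held 58.2, 47.8, 45.8 and 55.2%.

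A second set shows the 8-base sequence CACTGAGA, which was not in any list of known sites used here and was picked after its values were seen. The windows are the 4 strongest TSS-near summits that hold it and overlap no exon: chr3L:15098872-15099072 (in Ctps), chr3L:4228272-4228472 (in ImpL2, nearest to the start of CG46460), chrX:19155092-19155292 (in RhoGAP18B) and chr3R:16497536-16497736 (downstream of the Gr89a start, intergenic). Capitals mark CACTGAGA or its reverse complement TCTCAGTG.
Ctps: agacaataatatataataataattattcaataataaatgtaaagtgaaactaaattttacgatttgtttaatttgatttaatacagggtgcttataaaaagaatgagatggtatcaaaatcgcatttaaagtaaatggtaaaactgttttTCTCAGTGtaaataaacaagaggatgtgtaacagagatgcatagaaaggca
CG46460: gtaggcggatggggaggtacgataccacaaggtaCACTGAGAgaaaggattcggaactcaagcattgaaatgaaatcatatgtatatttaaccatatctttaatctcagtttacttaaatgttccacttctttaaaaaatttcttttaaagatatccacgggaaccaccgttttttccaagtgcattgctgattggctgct
RhoGAP18B: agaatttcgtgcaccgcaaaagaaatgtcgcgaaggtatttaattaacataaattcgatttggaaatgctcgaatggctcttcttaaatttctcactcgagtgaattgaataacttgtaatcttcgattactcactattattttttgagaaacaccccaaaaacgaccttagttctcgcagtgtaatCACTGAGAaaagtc
Gr89a: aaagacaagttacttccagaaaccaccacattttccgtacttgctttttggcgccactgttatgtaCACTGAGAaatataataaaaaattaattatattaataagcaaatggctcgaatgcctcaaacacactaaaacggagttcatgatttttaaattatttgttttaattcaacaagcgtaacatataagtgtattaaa
The match lay 54 bp from the summit at Ctps, 62 bp at CG46460, 91 bp at RhoGAP18B and 30 bp at Gr89a. The signals of these 4 peaks were 411, 408, 371 and 258.

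The deposited tables list peaks and not reads, so the sequencing depth is unknown. Each replicate list holds 30000 peaks. The signal of a peak is the value that the authors' peak caller wrote, on a scale that the labels do not give. It is not comparable from list to list, so that it serves here to rank and describe the peaks of each list. Peaks of 1 experiment are not replicates, and the exact intervals given for shares cover counting error only. With 2 replicates of 1 group no test between conditions was possible.

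TSS-near summits were about as dense as Spps summits in the genome at large. The zone between 500 and 2000 bp makes up 21.6% of the sequence of the 6 chromosome arms, so its 19.2% of summits is 0.892 of an even spread. It held 21.7 summits per Mb, against 24.4 per Mb over all arms, 90.5 per Mb within 500 bp of a TSS and 13.9 per Mb beyond 2000 bp. Inside the zone the density varied little with distance. It was 23.0 per Mb between 500 and 750 bp, 24.3 per Mb between 1000 and 1250 bp and 20.2 per Mb between 1750 and 2000 bp.

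Upstream and downstream densities lay closer together here than within 500 bp of a TSS. Of the 627 summits, 297 (47.4%, 43.4 to 51.4%) lay upstream of the nearest TSS, where 38.5% of the zone's sequence lies, and 330 lay downstream. Upstream density in 250-bp bins ran from 23.97 to 29.1 per Mb, and downstream density from 15.5 to 21.9 per Mb. Between 0 and 250 bp of a TSS the same values were 228 per Mb upstream and 47.4 per Mb downstream. The lowest of all bins was downstream at 250 to 500 bp, with 9.74 summits per Mb (6.94 to 13.3), below the 18.8 per Mb (14.7 to 23.7) of the next bin outward. The upstream share depended on which start sites were counted. With 1 start site per gene it was 35.5%, beside 38.0% of the sequence.

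**Figure D1:**
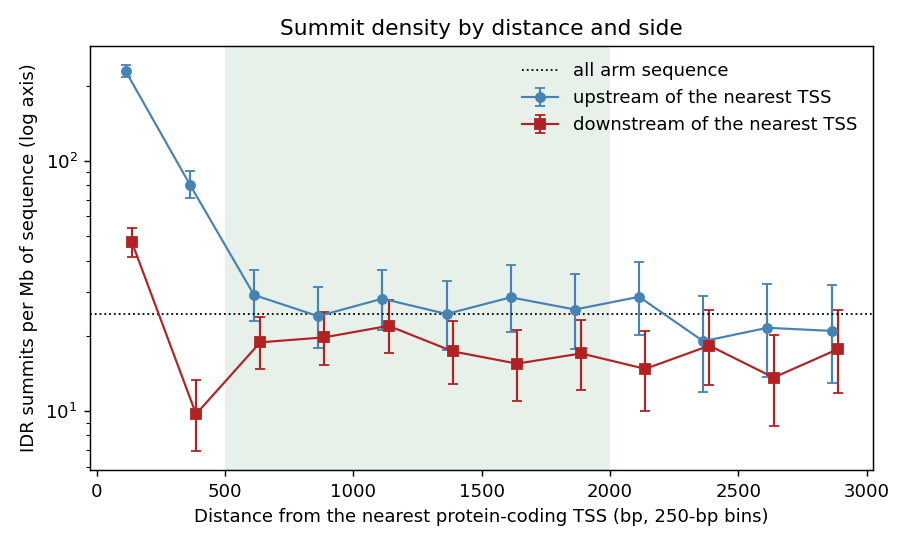
IDR summits per Mb of sequence (log axis) in 250-bp bins of distance from the nearest protein-coding TSS, upstream (circles) and downstream (squares), with exact 95% intervals. The shaded zone holds the 627 TSS-near summits, whose bins lie between 15.5 and 29.1 per Mb around the average of 24.4 (dotted line).

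Most TSS-near summits lay in introns, and most of these in the first intron of the gene. Introns held 424 summits (67.6%, 63.8 to 71.3%), and they make up 35.6% of the zone's sequence. Exons held 53 (8.45%, 6.40 to 10.9%) and make up 45.2% of the sequence. The remaining 150 (23.9%, 20.6 to 27.5%) were intergenic, beside 19.2% of the sequence. Of the 424 intronic summits, 359 (84.7%, 80.9 to 88.0%) were in a first intron, which makes up 66.5% of the zone's intronic sequence. Of the 330 downstream summits, 298 were inside the nearest gene and 258 (78.2%, 73.3 to 82.5%) in a first intron. Of the 53 exonic summits, 19 lay in exons of noncoding transcripts, 17 in 5′ UTRs, 14 in 3′ UTRs and 3 in coding sequence. The strongest exonic one, 1375 bp upstream of CG5550, lay in an exon of a long noncoding RNA (318 and 224 in replicates 1 and 2), and those at kis (193 and 110.1) and CG9837 (188 and 116) followed. Starts of noncoding genes lay within 500 bp of 36 of the 627 summits (5.74%), 32 of them starts of noncoding RNAs. A further 44 summits (7.02%) lay inside another gene and not in the nearest one. Examples are cbt, whose summit lies in the first intron of its neighbour ush, which encodes a cofactor of GATA factors, and brk, whose summit lies in an intron of CG1677.

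**Figure D2:**
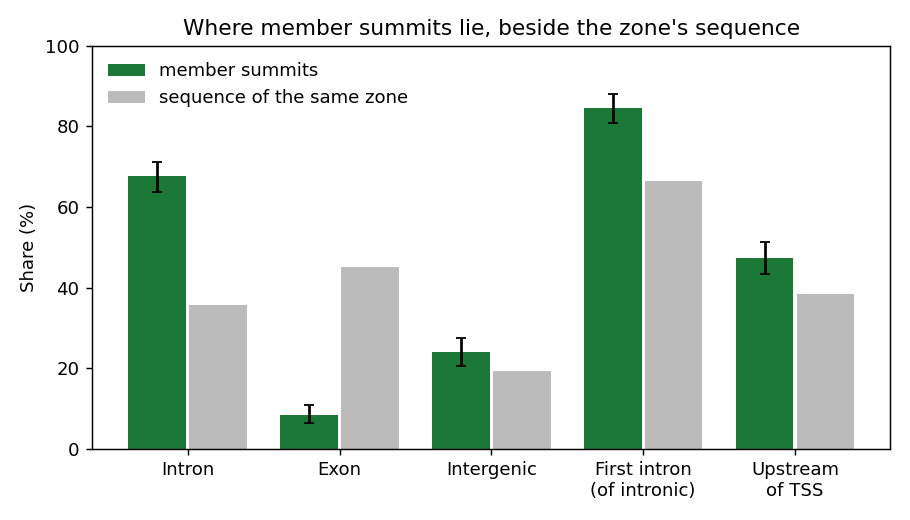
Share of the 627 TSS-near summits (green, exact 95% intervals) and of the sequence 500 to 2000 bp from a TSS (grey) in each class; the first-intron bars are shares of intronic summits and of intronic sequence. Introns hold 67.6% of summits and 35.6% of sequence, and exons 8.45% and 45.2%.

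The median signal of TSS-near summits was 160.1 (lowest 100.7, highest 1372), beside 156.5 for promoter summits and 150.7 for distal summits. They held 16 of the 100 strongest peaks (exact 95% interval 9.43 to 24.7%), where promoter summits held 59 (48.7 to 68.7%), and 198 of the 1000 strongest. Of the 627, all were matched by a replicate 1 peak with its summit within 200 bp and 625 by a replicate 2 peak. The IDR list itself rests on peaks found in both replicates, so these matches follow from the choice of list. Among all 3260 IDR peaks 99.7% were matched in both, and 1 replicate peak can match more than 1 summit. The TSS-near summits stood among the 3260 strongest peaks of replicate 1 in 574 cases (91.5%) and of replicate 2 in 526 cases (83.9%). Across the 625 matched in both, Spearman's rho between replicate signals was 0.763, a description over peaks from the same pair of libraries.

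The strongest TSS-near summit was in an intron of CG11050, 1022 bp downstream of its TSS (chr2L:6612525-6612898). Its signal was 831 in replicate 1 and 541 in replicate 2, and it ranked 2 in both lists. The next summit lay 1405 bp upstream of cbt, which encodes the KLF-family factor Cabut, with 639 and 363. Trl, the gene of GAGA factor, had a summit 1537 bp downstream of a TSS with 593 and 343. All 3 were among the 26 strongest peaks of each replicate.

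The other nearest genes of the 20 strongest have varied roles. Lk6, which encodes a kinase of the translation factor eIF4E, had 485 and 357 in replicates 1 and 2. For chif, the gene of a Dbf4-like activator of the Cdc7 replication kinase, the values were 467 and 299.8. For cno, which encodes the junction protein Canoe, they were 452 and 269. These 3 summits lie in first introns. The intergenic summits upstream of tara (439 and 286), RasGAP1 (379.7 and 330.4) and DNAlig3 (395 and 284) had lower replicate 1 values than these 3. simj, the gene of the p66 subunit of the NuRD complex, had 381 and 249, Alh, a homologue of the human AF10 gene, 353 and 225, and for, which encodes a cGMP-dependent kinase, 349.7 and 216. In each of these 20 the replicate 1 value was above the replicate 2 value, as it was in the medians over all members (98.7 and 62.8). The replicate lists were not scaled to each other.

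**Figure D3:**
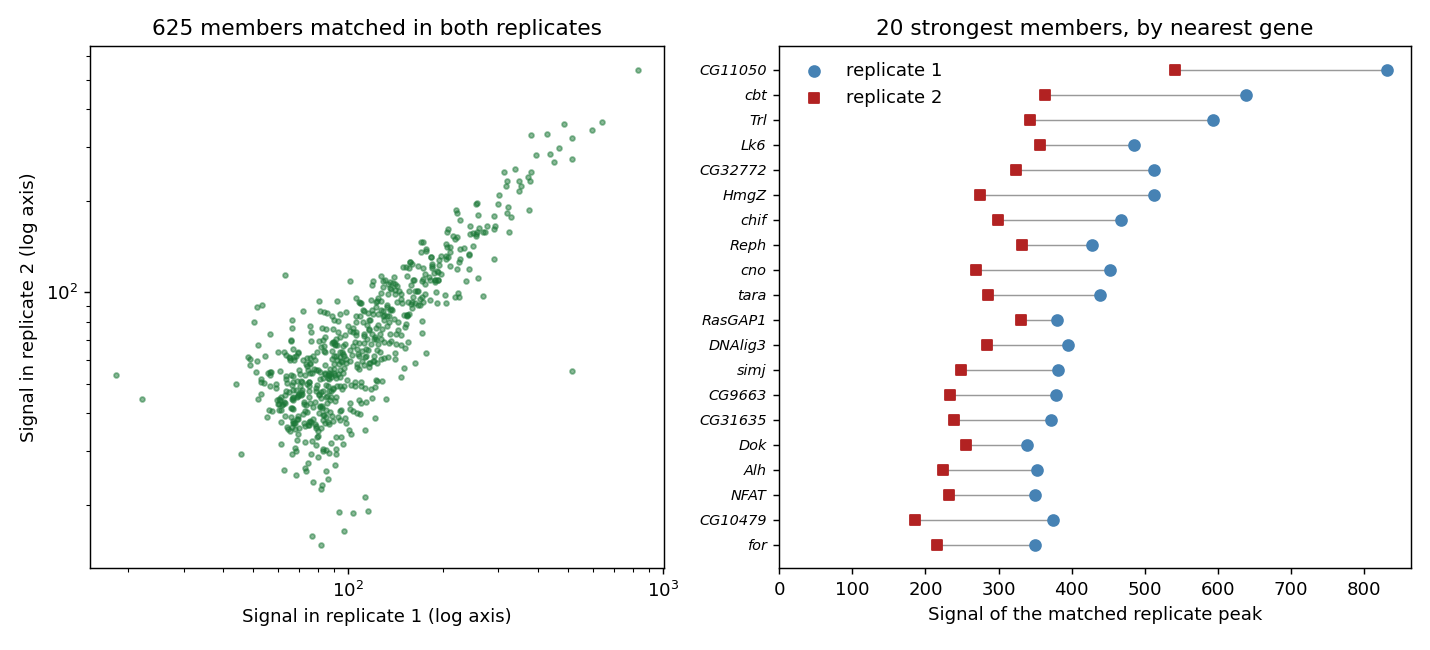
Left, signal of the matched peak in replicate 1 against replicate 2 (log axes) for the 625 TSS-near summits found in both. Right, both values for the 20 strongest, by nearest gene, from CG11050 (831 and 541) to for (349.7 and 216).

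A few summits stood apart between the replicates. The second HmgZ summit, 769 bp upstream, had 512 in replicate 1 and 55.3 in replicate 2. Its replicate 1 match is the peak of the stronger HmgZ summit (566 bp upstream, 512 and 275), which lies 173 bp from it by the replicate's own call. At a second Abd-B summit, 1482 bp upstream, replicate 1 had 18.3 and replicate 2 had 53.3. The other Abd-B summit, 1970 bp downstream of a TSS in the first intron, had 148 and 99.1.

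TSS-near summits sat in short dips of G and C content. Within 100 bp of the summit the median G and C content was 33.3% (quartiles 28.9 and 38.3%), and in the window of the same length 500 bp further from the TSS it was 40.8% (34.8 and 47.7%). The summit window had more G and C than its own flank in 149 of 627 cases (23.8%). In 50-bp bins the content fell to 30.8% next to the summit and was back at 43.2% at 150 to 200 bp. All windows of the same length in the zone had a median of 43.8%, and those in introns 39.8%, against 32.8% for the 424 intronic summits. Promoter summits had a median of 32.3% beside flanks at 45.3%, and distal summits 33.8% beside flanks at 42.8%. The flanks of the classes are not alike: their centre lay within 500 bp of a TSS for 698 of 1388 promoter summits, 16 of 627 TSS-near summits and 0 of 1245 distal summits. Differences between the classes were not tested.

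**Figure D4:**
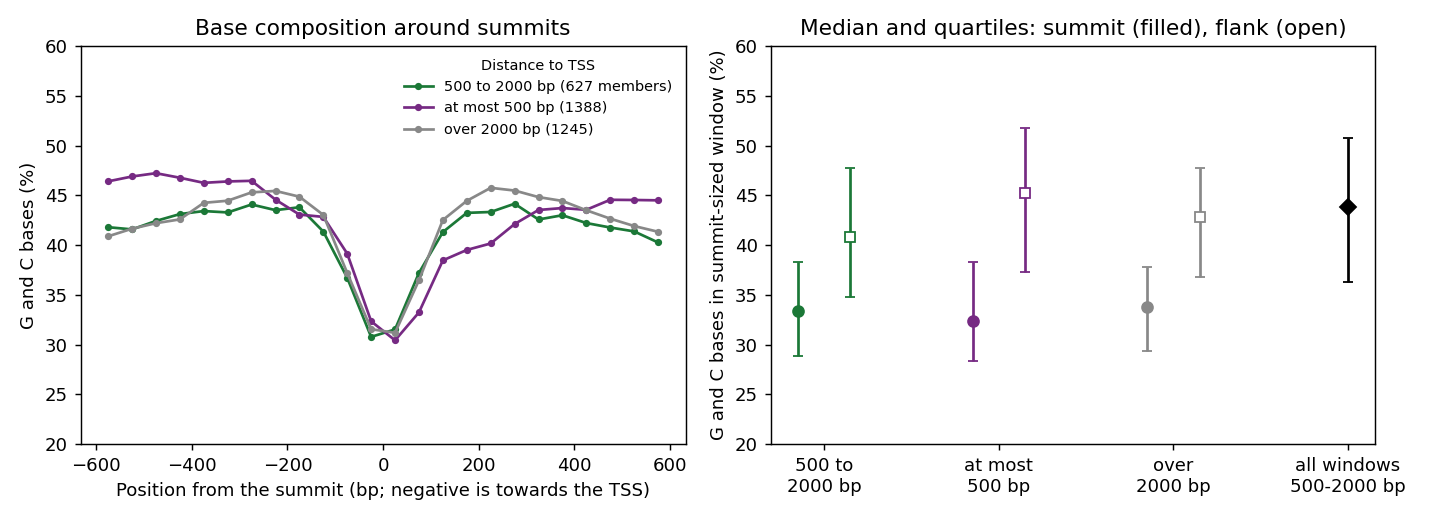
Left, mean G and C content (%) in 50-bp bins around the summits of each class, oriented so that negative positions point to the TSS. Right, median and quartiles of the windows within 100 bp of the summit (filled), their flanks (open) and all windows 500 to 2000 bp from a TSS (diamond, 43.8%); summit medians lie between 32.3 and 33.8%.

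Short words were then compared between each summit window and its own flank. Of 2080 distinct 6-mers (reverse complements joined), 183 (8.8%) were present at more summits than flanks and 269 (12.9%) at fewer, by exact two-sided McNemar tests with Benjamini-Hochberg adjusted p below 0.05. Most of these calls were shared with the other classes. Of the 183 higher words, 156 were also called higher at promoter summits and 170 at distal summits. Those classes had 368 and 350 higher words among the 2080. Of the 269 lower words, 233 and 226 were also lower there, among 871 and 729 lower words. The calls followed base composition. Of the 183 higher words 137 had at most 1 G or C, all 36 words of only A and T were called higher, and 265 of the 269 lower words had 3 or more G or C. By exact test ATATTA led, in 235 summits (37.5%) and 95 flanks (15.2%), exact adjusted p = 4.2e-14. Next by p came ATAATA in 40.03% of summits and 20.4% of flanks, ATTTAA in 47.4 and 26.5%, and TAAATA in 51.0 and 30.3%. They were followed by AATTTA in 42.6 and 23.9%, AAATAT in 53.4 and 33.2%, and TATTAA in 37.0 and 18.8%. AATATT was in 34.0 and 15.9%, TGTAAA in 32.2 and 15.2%, and TTTAAA in 35.2 and 19.0%. Every one of these 10 words was 1.61 to 2.47 times as frequent at summits as in flanks. Of the words called lower, the 5 with the smallest p were TCGCCA (2.71% of summits, 10.53% of flanks), GCGGCA (3.51 and 11.8%), CCGCCC (2.07 and 8.29%), ATCGCC (3.35 and 10.2%) and GCCTCC (1.44 and 7.02%). The difference in G and C between summit and flank moves with these calls. In the 176 members whose windows differ by at most 5 percentage points of G and C, 0 of the 2080 words passed the same exact test, and 84 had an unadjusted p below 0.05. There ATATTA was in 31.8% of summits and 19.3% of flanks, a ratio of 1.65, and ACAGTG in 16.5 and 8.52%, a ratio of 1.93. That subset also has fewer summits, and the part of base composition in the calls was not tested.

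Among the 46 higher words with 2 or more G or C, the 3 with the smallest p were as follows. ACAGTG was in 122 summits (19.5%) and 51 flanks (8.13%), exact adjusted p = 1.1e-06. ACTGTA was in 102 (16.3%) and 38 (6.06%), and AGTGTA in 111 (17.7%) and 45 (7.18%). These words had a share of 15.2, 12.2 and 12.8% at promoter summits and of 16.8, 12.9 and 22.6% at distal summits.

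Extending the words to 8 bases left 1 that was not made of A and T alone. Of 32896 8-mers, 18 were called higher (0.0547%) and 0 lower (0%) by the same exact McNemar test; 420 had an unadjusted p below 0.05 in the lower direction. Of the 18, 17 held only A and T. The exception was CACTGAGA, shown in the Ctps, CG46460, RhoGAP18B and Gr89a windows. It was in 29 TSS-near summits (4.63%, 3.12 to 6.58%) and 4 flanks (0.638%), a ratio of 7.25 (exact adjusted p = 0.028). Windows of the same length tiled over the zone held it in 0.558% of cases, and those within the quartiles of the summits' G and C content in 0.574%. It was also called higher in the other classes, in 25 promoter summits and 6 flanks and in 94 distal summits and 5 flanks. Its share was 1.80% of promoter summits (1.17 to 2.65%) and 7.55% of distal summits (6.14 to 9.16%). The interval of TSS-near summits does not overlap that of promoter summits, and it overlaps that of distal summits. These differences between classes were not tested. Of the 29 summits, 15 were intronic, 13 intergenic and 1 exonic, and the closest match lay at a median of 57 bp from the summit, within 50 bp in 8. Their median signal was 156, beside 160.1 for the other members. In the 176 members of like G and C content it was in 10 summits (5.68%) and 3 flanks (1.70%). RefSeq marks over 50% of the window as repeat in 1 of the 29, in 40 of all 627 (6.38%) and in 3.61% of the zone's windows. The mean masked share was 29.9% over the 29, 23.5% over all members and 13.9% over the zone's windows, and windows with no masked base numbered 0 of 29, 85 of 627 and 54806 of 143675.

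Of 23 motifs of known factors searched on both strands, 2 (8.7%) were called higher and 4 (17.4%) lower by the exact McNemar test, adjusted over the 23. The GC box GGGCGG, the same word as CCGCCC among the 6-mers above, was in 13 summits (2.07%, 1.11 to 3.52%) and 52 flanks (8.29%), exact adjusted p = 3.1e-06. All windows of the zone held it in 7.70% of cases, and those in the quartiles of the summits' G and C content in 2.15%. The Sp/KLF core (GGGCGGG or GGGCGTG) was in 9 summits (1.44%) and 38 flanks (6.06%), exact adjusted p = 1.8e-04. The CACCC box (CCACCC) was in 34 (5.42%) and 63 (10.05%), exact adjusted p = 0.011. These are GC-rich sites that the Sp and KLF family binds, and the GC box lies inside many matches to the core, so the 3 calls overlap. They did not hold in the 176 members of like G and C content, where the GC box was in 5 summits and 4 flanks, the core in 6 and 7 and the CACCC box in 13 and 11. Windows of the zone with like G and C content held the CACCC box in 3.15% of cases. A relaxed Sp/KLF form (RRGGYGY) was not called, in 98 summits (15.6%) and 122 flanks (19.5%), exact adjusted p = 0.18. It was in 32 summits and 23 flanks of those 176 members and in 11.6% of the zone windows of like content. With replicate 1 alone or start sites of all genes it was called lower (exact adjusted p = 0.023 and 0.025). The same held with a window of 50 bp to each side and a flank 1000 bp away (exact adjusted p = 0.031 and 0.045). With a flank 1000 bp away the CACCC box and the core also lost their calls (exact adjusted p = 0.21 and 0.097). The CACCC box lost its call with a flank on the TSS side and with 1 start site per gene too (exact adjusted p = 0.15 and 0.13). CAGCTG, an E-box that basic helix-loop-helix factors bind, was in 33 and 58, exact adjusted p = 0.025, and lost its call with either replicate alone (exact adjusted p = 0.084 from replicate 2 and 0.068 from replicate 1). In the members of like G and C content it was in 14 summits and 11 flanks.

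The 2 motifs called higher are rich in A and T. The TATA box (TATAAA) was in 243 summits (38.8%) and 148 flanks (23.6%), exact adjusted p = 2.1e-07. The GATA site (WGATAR) was in 281 (44.8%, 40.9 to 48.8%) and 208 (33.2%), exact adjusted p = 1.8e-04, while windows of the zone with like G and C content held them in 36.3 and 40.9% of cases. Among the 1000 strongest peaks and between 500 and 1000 bp, both with fewer summits, the GATA site lost its call (exact adjusted p = 0.34 and 0.061). The TATA box kept its call in both settings (exact adjusted p = 8.0e-04 and 0.020). In the 176 members of like G and C content the TATA box was in 35.2% of summits and 26.1% of flanks and the GATA site in 43.8 and 35.2%, ratios of 1.35 and 1.24, and neither passed the exact test in this smaller set (exact adjusted p = 0.82 for both). At promoter and at distal summits the TATA box and the GATA site were also called higher. The GC box, the core and the CACCC box were called lower in both classes as well. The TATA box was in 43.2% of promoter summits and 19.8% of their flanks, and in 39.2 and 20.9% for the distal class. CAGCTG was called lower at distal summits and was not called at promoter summits.

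DRE and Motif 1, elements of broadly active promoters, were rarer at TSS-near than at promoter summits and near their background in the zone. DRE (TATCGATA) was in 1 of 627 (0.159%, 0.00404 to 0.885%), beside 85 of 1388 promoter summits (6.12%, 4.92 to 7.52%) and 2 of 1245 distal summits (0.161%). It was in 3 TSS-near flanks and in 0.364% of the zone's windows. Motif 1 (GGTCACAC) was in 4 (0.638%, 0.174 to 1.63%), beside 4.90% of promoter summits (3.82 to 6.17%), 1 TSS-near flank and 0.290% of the zone's windows. For both elements the intervals of the TSS-near and promoter classes do not overlap, and the difference was not tested. The CTCF core (AGGTGGCG) was in 10 summits and 2 flanks (exact adjusted p = 0.11), and passed with a flank 1000 bp away (exact adjusted p = 0.045). Sites for Polycomb-associated factors did not pass the test: GAGA (GAGAG) was in 24.1% of summits and 27.3% of flanks, the Pho site (GCCATNW) in 15.6 and 17.2%, and the Zeste site (YGAGYG) in 21.1 and 26.0% (exact adjusted p = 0.36, 0.62 and 0.11). The Zeste site was called lower with replicate 1 alone, with a window of 50 bp to each side and with a flank on the TSS side (exact adjusted p = 0.024, 0.032 and 4.0e-07), and GAGA was called lower with that flank (exact adjusted p = 0.0082). In the 176 members of like G and C content, GAGA was in 50 summits and 37 flanks. There the Pho site was in 36 and 30 and the Zeste site in 40 and 32, and none was called. Windows of the zone with like G and C content held GAGA in 15.9% of cases, Zeste in 16.97% and Pho in 18.8%. The share of all members was above these values for GAGA and Zeste and below for Pho, which was not tested.

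The 627 summits had 544 different nearest genes, 3.90% of 13945 protein-coding genes. These genes were long. Their median length was 10348 bp, beside 3179 bp for the 1897 genes with a promoter summit and 2166 bp for all. With all genes split by length into 4 groups of like size, 10.8% of the longest group (4999 bp or more) had a TSS-near summit, beside 1.12 to 2.44% in the other 3 groups. The rule is itself tied to gene length, since a short gene with close neighbours leaves little sequence more than 500 bp from any TSS. Gene length also differs between the lists below, and its part in their shares was not tested. The lists with the longest median were Hox genes (30563 bp, share 12.5%), ecdysone response genes and nuclear receptors (22426 bp, 16%) and the EGFR and Ras pathway (19139 bp, 25%).

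The Dpp, Hippo and EGFR and Ras pathways had the highest shares of the 20 gene lists, while the other signalling lists lay lower. The order of these 3 changed with the settings: with replicate 2 alone the Dpp share was 25% and the Hippo share 26.7%, and with 1 start site per gene they were 20% and 33.3%, with EGFR and Ras at 30%. Between 500 and 1000 bp the Dpp share was 15% and the Hippo share 20%. Differences between lists were not tested. In the Dpp pathway (the fly BMP pathway), 7 of 20 genes (35.0%, 15.4 to 59.2%) were nearest to a TSS-near summit, while 1 of 20 had a promoter summit. The genes span the pathway: the receptors tkv, put and wit, the signal transducer Mad, its partner shn, the repressor brk and the feedback inhibitor Dad. The Mad summit lay 696 bp upstream of a TSS in the first intron, with 233 in replicate 1 and 140.2 in replicate 2. The 2 shn summits had 207 and 161, and 92.4 and 80.3. Of the 2 brk summits, 724 and 1904 bp upstream, the nearer had 225 and 126. Of the receptor summits, tkv had 177 and 63.1, put 73.8 and 40.3 and wit 69.5 and 39.1. The median length of the 20 genes is 7516 bp.

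The Hippo growth-control pathway had 5 of 15 genes (33.3%, 11.8 to 61.6%). They were the cadherins ds and ft, the kinase dco, and the upstream regulators ex and crb. In this list 7 of 15 genes had a promoter summit, and 3 had both. The ds summit, 557 bp upstream, had 184 and 124 in the 2 replicates, and the dco summit in the first intron had 166 and 101. In the EGFR and Ras pathway 5 of 20 genes (25%, 8.66 to 49.1%) were nearest genes: the kinase Raf, the transcription factors aop, pnt and cic, and S, which aids ligand export. The aop summit, 1503 bp upstream, was the strongest of them (214 and 153).

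Chromatin regulators were present in both opposed groups. Of 26 trithorax group genes 5 (19.2%, 6.55 to 39.4%) were nearest genes: Trl, the acetyltransferase gene nej, the chromatin remodeller gene kis, the H3K27 demethylase gene Utx, and tna. The nej summit lay 667 bp upstream, with 293 and 166. Of 23 Polycomb group genes there were 3 (13.0%, 2.78 to 33.6%). The ph-d summit, 849 bp upstream, had 312 and 249, the ph-p summit in the first intron 203 and 98.1, and the jing summit 74.7 and 55.5. Both ph-d and ph-p encode Polyhomeotic, a subunit of the PRC1 complex. Of the 8 Hox genes only Abd-B had a TSS-near summit, and of the 8 Sp and KLF genes only cbt.

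Some housekeeping lists had none, with intervals that include the 3.90% of all genes. Of 92 cytoplasmic ribosomal protein genes 0 (up to 3.93%) were the nearest gene of a TSS-near summit, while 58 (63.0%) had a promoter summit. The values were 0 of 73 and 17 for mitochondrial ribosomal protein genes, and 0 of 30 and 10 for cell cycle genes (up to 4.93 and 11.6%). The cell cycle share was 3.33% with either replicate alone or with 1 start site per gene, and the cytoplasmic ribosomal share 1.09% with replicate 1 alone. The first 2 of these lists hold short genes, with medians of 1315 and 909 bp. Cell cycle genes have a median of 3354 bp and segmentation genes, with 2 of 24 near a TSS-near summit (ftz-f1 and bcd), 3211 bp. Of 179 chemoreceptor genes 2 (1.12%, Gr89a and Gr93a) were nearest genes, and of 103 cuticle protein genes 2 (1.94%, Cpr100A and Cpr76Ba). Their median lengths are 1691 and 1075 bp, and genes in the 2 shorter length groups had shares of 1.26 and 1.12%. The other lists lay between: 4 of 20 mesoderm and muscle regulators (zfh1, bin, Mef2 and Doc1), 4 of 25 ecdysone response genes and nuclear receptors (Hr4, Hr38, Eip75B and ftz-f1), 3 of 20 Notch pathway genes (fng, neur and E(spl)m3-HLH), 3 of 24 Wnt pathway genes (fz, Wnt5 and fz3), 2 of 20 neural regulators (elav and nerfin-1), 1 of 12 Hedgehog pathway genes (boi) and 1 of 17 insulator protein genes (Trl).

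**Figure D5:**
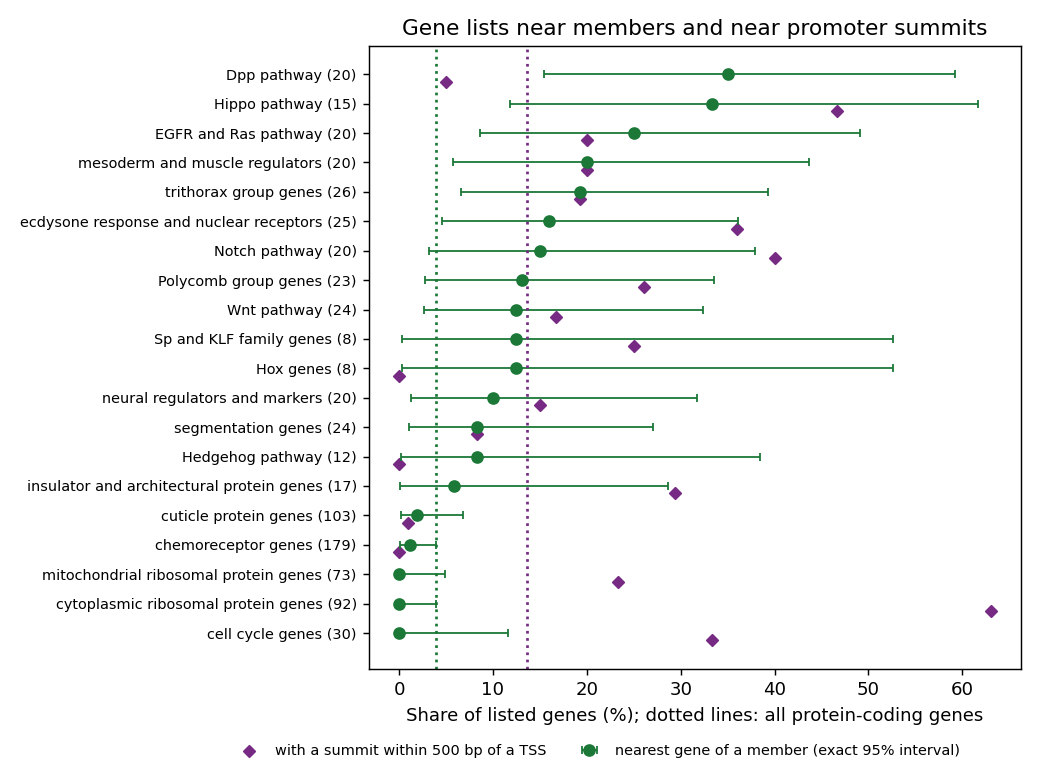
Share (%) of the genes of each list that are the nearest gene of a TSS-near summit (green circles, exact 95% intervals) and that have a summit within 500 bp of a TSS (purple diamonds), with the number of genes per list in brackets. Dotted lines mark all protein-coding genes (3.90 and 13.6%); the Dpp pathway is at 35.0% and 5.0%, and cytoplasmic ribosomal protein genes are at 0 and 63.0%.

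Several genes held clusters of TSS-near summits. Of the 544 genes, 475 had 1, 59 had 2 and 10 had 3 or more. Tlk, which encodes Tousled-like kinase, had 5, with signals from 101 to 221. CG9837 had 4 (129.9 to 410.0) and so did CHES-1-like, a forkhead factor gene (104 to 316). The genes with 3 were NFAT, RhoGAP18B, CBP, CG10543, Shrm, pnt and Oda, in order of their strongest summit. In NFAT, the gene of a calcium-regulated transcription factor, the 3 summits had 349 and 232 in replicates 1 and 2, 145 in replicate 1 with no replicate 2 summit within 200 bp, and 76.8 and 54.5.

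TSS-near summits often had another Spps summit nearby. Within 2 kb, 216 (34.4%, 30.7 to 38.3%) had another IDR summit, beside 16.8% of promoter summits (14.9 to 18.9%) and 26.7% of distal summits (24.2 to 29.2%). The intervals do not overlap, and the difference was not tested. The rule places every TSS-near summit within 2 kb of a TSS, and summits were densest there (90.5 per Mb within 500 bp). The comparison with distal summits is thus tied to the rule itself, whose part was not tested. Summits within 2 kb of each other are also both counted, which the intervals do not allow for, so their lack of overlap decides nothing. For 191 of the 627 summits (30.5%, 26.9 to 34.2%) the nearest gene also had a promoter summit, a gene with several summits counting each time. Counted by gene it was 157 of 544 nearest genes, beside 1897 of 13945 protein-coding genes (13.6%). In the longest of the 4 length groups 646 of 3486 genes had one, and the part of gene length was not tested. The share of summits fell to 14.6% among the 1000 strongest peaks, where 4.53% of all genes had a promoter summit. With 1 start site per gene it was 18%, where 11.9% of genes did. CG11050, cbt, Lk6, Reph and simj were among the strongest with such a second summit at the promoter, and Trl, CG32772, chif, cno and tara among those without.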

How the data were processed

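Spps-GFP ChIP-seq peaks of whole embryos were analysed from 2 biological replicates of 1 group. Per the labels, chromatin was sonicated to a size range of 200 to 800 bp and files are on dm6. The sources used here name no aligner, peak caller, filter or IDR threshold. Each peak's signal is the value deposited by the authors, on a scale that the labels do not give. Summits are the peak start plus the deposited offset. TSSs came from Ensembl release 115 (13945 protein-coding genes), sequence from RefSeq.

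Computed here, with Python 3.11.15, pandas 2.3.3 and SciPy 1.17.1, were distance, genomic class (exon over intron over intergenic) and matches to replicate peaks within 200 bp. Shares carry Clopper-Pearson 95% intervals. Words and motifs within 100 bp of the summit were compared with a window centred 500 bp further from the TSS. The tests were two-sided exact McNemar tests, tried first on simulated data. That trial does not show how the tests behave where summit and flank differ in G and C content, as here (medians 33.3 and 40.8%). Alternatives were the 1000 strongest peaks, the 3260 strongest peaks of each replicate alone, and other start sites, limits, windows and flanks. Added after seeing the data were 8-mers and members with like G and C content. Members, gene lists (759 of 765 listed symbols matched) and motifs were chosen with earlier results of these data known. Genes named are those nearest to the 20 strongest members, to the 3 strongest per list, to the strongest intergenic and exonic members, and those with 3 or more members; other listed genes are named to make up counts of 7 or fewer.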

Additional observations from a re-analysis of the deposited data

How the results depend on the processing

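No paired analysis was possible because there is 1 group. Replicate 2 alone and replicate 1 alone were each taken as their 3260 strongest peaks, the size of the IDR list. Every main share and count then stayed within its replicate or counting error, or within 1.5 times the count reported. Members numbered 623 and 628, counts that the equal list size partly sets, and 164 and 185 6-mers were higher. Among the 1000 strongest peaks there were 198 members, with 51.5% upstream, 73.2% in introns, 14.6% near a gene with a promoter summit, 49 6-mers higher and 22 lower, 1 motif higher and 1 lower, and 1.34% of genes near a member. Between 500 and 1000 bp there were 262 members, 35 6-mers higher and 16 lower, 1 motif higher, 0 lower and 1.79% of genes; both settings test fewer summits. With TSSs of all genes, 3.53% of genes were near a member. With 1 TSS per gene, 35.5% of members were upstream, 60.7% in introns, 89.5% of these in a first intron and 18% near a gene with a promoter summit, and 2 motifs were lower. A flank on the TSS side gave 7 motifs lower, a promoter limit of 250 bp gave 18.8% with a promoter summit, and a match within 50 bp gave 78.5% found in both replicates. With summit and flank within 5 points of G and C, 0 6-mers and 0 motifs were called in either direction, in 176 members. Called motifs changed direction in these 176 members at the GC box (summit over flank 1.25), the CACCC box (1.18) and CAGCTG (1.27), none past the threshold there; a further 24 changes of direction were of motifs called under neither setting. The upstream share, above that of the sequence in the main analysis, was below it (38.0%) with 1 TSS per gene. Of all motif comparisons, 12 crossed the threshold towards a call and 19 away from it in the same direction. Gene list shares stayed within error in all but 17 comparisons. The cause of these shifts was not tested. No read depth is given in the peak lists, so weak peaks could not be weighed by their reads.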
